A study of Mus musculus with 6 samples.

Results

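The clustered protocadherins are 57 of the 34250 gene rows in the table of this series, and their RNA was compared between fibrinogen-treated and control mouse libraries. A row was taken as a member when its symbol named an alpha, beta or gamma protocadherin of the cluster (Pcdha, Pcdhac, Pcdhb, Pcdhga, Pcdhgb or Pcdhgc followed by a number). This gave 13 alpha, 22 beta and 22 gamma rows. Pcdha10 was not analysed here. RefSeq lists 56 of the members as protein coding and Pcdhgb8 as a transcribed pseudogene.

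The libraries are labelled wild-type C57BL/6 brain oligodendrocyte progenitor cells (OPCs, glial cells that mature into the myelin-forming oligodendrocytes). The 3 control libraries carry the treatment label control, and the 3 others had fibrinogen, a clotting protein of blood plasma, with 2.5 mg given in the column names. According to the methods of the study, OPCs were cultured from the cortex of newborn pups, and the question was how fibrinogen acts on them. The labels do not state whether replicates are separate cultures. A p-value here therefore covers the spread among the 6 libraries only, and that spread may be technical.

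Clustered protocadherins are cell-surface adhesion proteins of the cadherin superfamily that bind the same isoform on a neighbouring cell. In neurons each cell expresses its own mixture of isoforms, chosen by promoter choice, CTCF and cohesin looping and DNA methylation, and this mixture lets a neurite tell its own branches from those of other cells. Their neuronal roles are the best known, and they are also found in glia.

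The 3 clusters lie in a row on chromosome 18 (GRCm38 build) in the order alpha, beta, gamma, over 213.3, 252.9 and 157.7 kb. An alpha or gamma transcript joins 1 variable exon, which holds the extracellular part, to constant exons that all isoforms of its cluster use for a common cytoplasmic end. Beta genes have no constant exons. In the exon lists of the table, all 13 alpha rows held the same 2860 bases and all 22 gamma rows the same 2116 bases, beside 2346 to 7174 and 2499 to 5511 bases that differed between rows. No base was common to the beta rows, although Pcdhb21 and Pcdhb22 overlapped by 455 bases.

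Each library had 36670999 to 44448983 reads in genes, and 14237 to 14839 genes reached 1 RPKM (reads normalised to the kilobases of exon and to the depth of the library). In the test over all genes (limma on log2(RPKM + 1), Benjamini-Hochberg adjusted p under 0.05), 863 genes rose and 826 fell of 14710 tested (11.5%, with 5.87% higher and 5.62% lower), and the median log2 change was -0.0077. A list of 10 OPC markers summed to 62.0 to 63.9 RPKM in controls and 86.7 to 91.0 RPKM with fibrinogen. It had 9 tested genes, of which 5 rose and 0 fell. Of those not called, Pdgfra, Vcan and Lhfpl3 had log2 changes of -0.11, -0.21 and -0.081, and Ptprz1 of 0.29. A list of 12 neuron markers summed to 2144 to 2373 and 2056 to 2573 RPKM, and 1 of its 12 genes rose. No gene of either list was at 0 in all libraries, and the far larger neuron sum goes against a label of OPCs alone. Endothelial and mural markers summed to 49.997 to 55.4 RPKM in controls and 63.7 to 80.4 RPKM with fibrinogen. In that list 3 of 8 rose: Tek, Rgs5 (mean 16.4 to 29.6 RPKM) and Vtn (mean 8.19 to 14.8 RPKM). Uncalled Pecam1, Cldn5 and Flt1 had log2 changes of -0.41, -0.11 and -0.11, and Cdh5 and Pdgfrb of 0.12 and 0.043. Oligodendrocyte markers summed to 185 to 302 RPKM in controls and 218 to 354 RPKM with fibrinogen, sums that overlap, and 4 of 10 rose (Opalin, Ugt8a, Ermn and Mag), with a median log2 change of 0.51. Microglia markers summed to 67.3 to 77.2 and 66.7 to 74.7 RPKM (1 of 9 rose and 1 fell), and astrocyte markers to 519 to 606 and 447 to 488 RPKM (1 of 9 rose and 2 fell). In such bulk samples a change in the number of cells of a type and a change in RNA per cell cannot be told apart.

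The reads of the constant exons were counted in every row of their cluster. Whole reads could be recovered from the RPKM values and gene lengths, and they showed a common floor. In control replicate 1 the 13 alpha rows ran from 1641 reads in Pcdha8 to 2344 in Pcdhac2, and the 22 gamma rows from 7216 in Pcdhga2 to 8998 in Pcdhgc3. Constant-exon reads could make up at most 96.7 to 97.6% of the median alpha row and 98.0 to 98.7% of the median gamma row, depending on the library. Over the 6 libraries, 5 to 8 of the 13 alpha rows and 15 to 19 of the 22 gamma rows lay within 3% of the lowest row. The alpha rows are therefore largely 1 measurement written 13 times, and the gamma rows 1 measurement written 22 times.

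**Figure D1:**
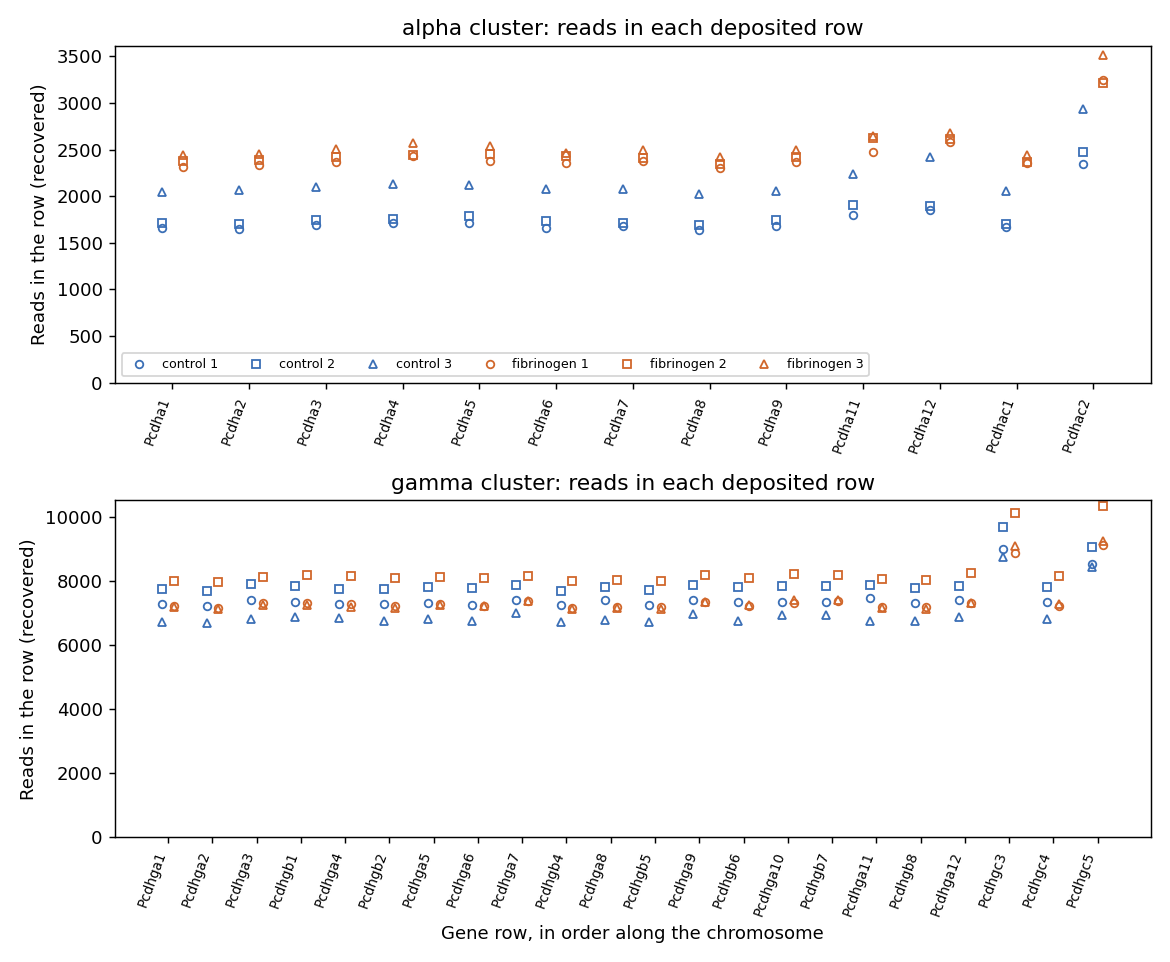
Recovered reads (y axis, linear from 0) in each alpha row (upper panel) and gamma row (lower panel) of the table, in chromosome order, with 1 symbol per library and colours for control and fibrinogen. Within a library the rows lie nearly level, and Pcdhac2, Pcdhgc3 and Pcdhgc5 stand above the others.

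In the alpha cluster all 13 rows had higher values in each fibrinogen library than in any control library, and 9 rows rose. The summed level of the rows was 110 RPKM ± 6.61 (SD, n = 3) in controls and 143 RPKM ± 12.5 (SD, n = 3) with fibrinogen, a ratio of 1.3. Among all tested genes 17.4% lay above without overlap and 5.87% were called higher. The log2 change was 0.31 to 0.36 in the 13 rows, with limma adjusted p from 0.0405 to 0.0817.

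The rows called were Pcdha1 to Pcdha9. These are conventional alpha isoforms, as are Pcdha11 and Pcdha12, which were not called. Pcdha1 was 8.09, 8.21 and 8.94 RPKM in control replicates 1 to 3 and 11.8, 9.999 and 11.1 RPKM in fibrinogen replicates 1 to 3. Pcdha2 was 8.06, 8.12 and 8.99 RPKM against 11.9, 10.04 and 11.1 RPKM. Pcdha3 was 8.27, 8.36 and 9.22 RPKM against 12.1, 10.2 and 11.4 RPKM. In each of these rows control replicate 3 was the highest control and fibrinogen replicate 2 the lowest treated library. Pcdha4 was 7.77, 7.80 and 8.62 RPKM against 11.5, 9.54 and 10.8 RPKM. Pcdha5 was 8.61, 8.78 and 9.55 RPKM against 12.5, 10.6 and 11.9 RPKM. Pcdha6 was 8.08, 8.26 and 9.06 RPKM against 11.996, 10.2 and 11.1 RPKM. The same order of libraries recurred. Pcdha7 was 8.24, 8.20 and 9.10 RPKM against 12.1, 10.2 and 11.4 RPKM. Pcdha8 was 8.04, 8.09 and 8.88 RPKM against 11.8, 9.87 and 10.99 RPKM. Pcdha9 was 8.21, 8.38 and 8.98 RPKM against 12.1, 10.2 and 11.4 RPKM, with the lowest adjusted p of the cluster (log2 change 0.36, SE 0.085, limma adjusted p = 0.0405).

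Pcdhac1 and Pcdhac2 are the C-type alpha isoforms, which are not chosen at random among neurons as the others are. Pcdhac2, needed in mouse for the spacing of serotonergic axons, had the highest alpha row at 10.4, 10.8 and 11.7 RPKM in controls and 15.0, 12.3 and 14.5 RPKM with fibrinogen. Its groups did not overlap, and the log2 change of 0.32 missed the threshold (limma adjusted p = 0.0731). Pcdha12, the second highest, was 9.09, 9.10 and 10.6 RPKM against 13.2, 11.01 and 12.2 RPKM (log2 change 0.31, limma adjusted p = 0.0817). Pcdhac1 was 8.06, 8.04 and 8.87 RPKM against 11.9, 9.81 and 10.9 RPKM (log2 change 0.35, limma adjusted p = 0.0501). Pcdha11 had a log2 change of 0.31 (limma adjusted p = 0.0530).

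The number of alpha calls moved with the libraries in the fit, and the size of the change less so. Without control replicate 1, control replicate 2, fibrinogen replicate 1 or fibrinogen replicate 3, 0 alpha rows passed. Without fibrinogen replicate 2 there were 3, and without control replicate 3 there were 12. The median log2 change of the rows was 0.29 to 0.41 in these 6 fits and 0.35 with all libraries. In each fit 12 or 13 rows had an unadjusted p under 0.05, but the rows are largely 1 measurement. With all libraries 29.4% of all tested genes had such a p. Calls over all genes fell too, from 1689 to between 466 and 948, in the 5 fits other than that without control replicate 3. The sums of the OPC and of the endothelial and mural markers were also higher in every fibrinogen library, though single genes of both lists went down. Astrocyte marker sums were lower in every fibrinogen library, and 4 of 10 oligodendrocyte markers rose. The part of these cell types in the alpha and beta values was not tested.

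The constant exons were also counted once, as a feature of their own. Reads of the lowest row, Pcdha8 in each library, stood for them. They were 42.9, 43.2 and 47.4 RPM (reads normalised to depth but not to length) in controls and 62.7, 52.7 and 58.7 RPM with fibrinogen, a ratio of 1.3. All treated libraries lay above the controls, and the constant exons rose as 1 feature (log2 change 0.36, SE 0.087, limma adjusted p = 0.0424). In that fit 11.4% of features were called and 5.82% were called higher. This count, like all those below with the constant exons counted once, was chosen after seeing the data. In the 6 fits that each left out a library the log2 change was 0.30 to 0.42, and the call held in 2 (limma adjusted p from 0.0340 to 0.1497).

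Reads above the lowest row of a cluster give the least that a row's own exons can have had, and Pcdhac2 took the largest share of them in the alpha cluster. It held 42.5 to 49.5% of such alpha reads. Its own-exon level was 6.07, 6.69 and 7.0 RPKM in controls and 8.53, 6.501 and 8.84 RPKM with fibrinogen. The groups overlapped because of fibrinogen replicate 2 (log2 change 0.23, limma adjusted p = 0.249). Of 5 serotonin neuron markers, Fev was at 0 in every library and only Ddc was tested, which fell from a mean of 3.01 to 0.992 RPKM (limma adjusted p = 0.029). Tph2, which makes serotonin in neurons, was at 0.0625 to 0.194 RPKM and overlapped. Pcdha12 came next with 2.25, 2.16 and 3.68 RPKM against 3.14, 2.45 and 2.60 RPKM, which overlap. Part of its own exons lies over an opposite-strand predicted gene, Gm10545. The study's methods name a stranded library kit, and whether the counting used strand is not given in the sources used here. The other alpha isoforms had means of 0 to 1.08 RPKM in their own exons. In these low rows Pcdha3, Pcdha4, Pcdha7 and Pcdha9, 4 of the 13, were above without overlap and 0 below, beside 11.2% above and 12.3% below over all features with a value. Pcdha4 and Pcdha7 share own-exon bases with the predicted genes Gm42416 and Gm37388, whose rows also hold gamma constant exons. Of the 3 alpha own-exon features that reached 1 RPKM in at least 3 libraries, 0 were called by limma and 0 had an unadjusted p under 0.05. Limma-voom, a count-based fit on the recovered reads, tested 12 and called 0, where 5.72% of all features were called higher and 5.64% lower. Of the 12, 4 had an unadjusted p under 0.05, beside 28% of all features in that fit.

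In the beta cluster 19 of 22 genes had a higher mean with fibrinogen, and 0 passed the main test. The summed level was 20.2, 20.1 and 24.2 RPKM in controls and 28.2, 28.0 and 28.9 RPKM with fibrinogen. The mean went from 21.5 RPKM ± 2.31 (SD, n = 3) to 28.4 RPKM ± 0.461 (SD, n = 3), a ratio of 1.32, with no overlap. Beta genes have their own promoters and no constant exons. Of the 22 rows, 18 list 1 exon and 4 list 3 (Pcdhb2, Pcdhb6, Pcdhb8 and Pcdhb22). Apart from the bases common to Pcdhb21 and Pcdhb22, no bases were shared between beta rows, unlike in the alpha rows. In Pcdhb12, 1927 bases also lie in the opposite-strand row Gm37446, which held 149 to 326 reads a library.

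Beta levels were low. Mean RPKM over all libraries ran from 0.0349 in Pcdhb1, with 0 to 10 reads a library, to 4.97 in Pcdhb20. Of the 22 genes, 10 reached 1 RPKM in at least 3 libraries and were tested, and 12 were below that filter. A filter of this kind can admit a gene through the group where it is high: 5 of the 10 reached 1 RPKM in all fibrinogen libraries and not in all controls, and 2 of these, Pcdhb5 and Pcdhb8, in no control. All 22 were therefore also set side by side without it: 10 had fibrinogen libraries above every control (Pcdhb3, Pcdhb4, Pcdhb5, Pcdhb8, Pcdhb11, Pcdhb12, Pcdhb14, Pcdhb17, Pcdhb19 and Pcdhb20), 0 had them below, and 12 overlapped. Among all rows with a value above 0, 11.2% lay above without overlap and 12.3% below. The median ratio of the group means over the 22 genes was 1.42. Pcdhb7, Pcdhb13 and Pcdhb21 had lower means with fibrinogen, at 0.898, 0.804 and 0.936 times the control mean, and their groups overlapped.

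Pcdhb20 was the highest beta gene in every library. It was 3.31, 3.81 and 5.04 RPKM in control replicates 1 to 3 and 5.70, 5.82 and 6.12 RPKM in fibrinogen replicates 1 to 3. The treated libraries were close together and control replicate 3 stood nearest to them. The log2 change of 0.46 (SE 0.13) had a limma adjusted p of 0.0630. Pcdhb9 was 1.41, 1.44 and 2.94 RPKM against 2.36, 2.56 and 2.53 RPKM, and control replicate 3 lay above all treated libraries (limma adjusted p = 0.367). Pcdhb22 was 1.43, 1.47 and 1.95 RPKM against 1.82, 2.01 and 2.11 RPKM, with overlap (limma adjusted p = 0.291).

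**Figure D2:**
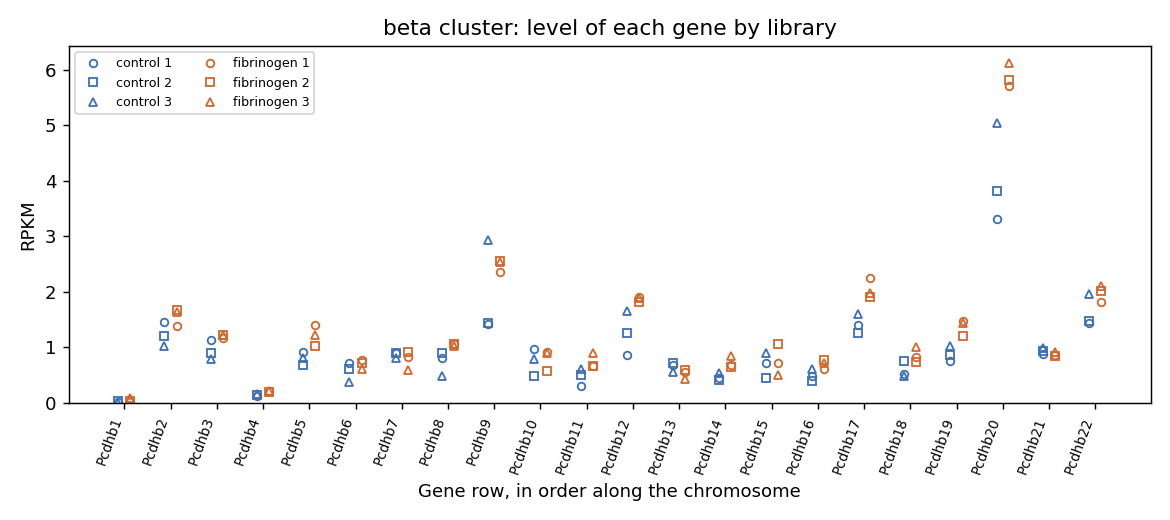
RPKM (y axis, linear from 0) of the 22 beta genes in chromosome order, with 1 symbol per library and colours for control and fibrinogen. Pcdhb20 is the highest gene in each library, and in 10 genes the fibrinogen symbols all lie above the control symbols.

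Without a filter 6 of the 22 beta genes had an unadjusted p under 0.05 and 0 were called, beside 18.7% of all genes with such a p. Among the 10 that passed the filter it was 5, beside 29.4%, and nothing is read from this because of how some of them passed. Limma-voom, which keeps genes with at least 10 reads in at least 3 libraries, tested 21 beta genes and called 2, both higher, beside 5.78% of all its genes called higher and 5.64% lower. These were Pcdhb19 (log2 change 0.63, limma-voom adjusted p = 0.0359) and Pcdhb20 (0.55, limma-voom adjusted p = 0.0439), and Pcdhb19 was named after its values were seen. It was 0.755, 0.854 and 1.026 RPKM in controls and 1.47, 1.20 and 1.44 RPKM with fibrinogen, without overlap. Without control replicate 3 the main test called 3 beta genes, where 15.6% of all genes were called, and in the 5 other fits without a library it called 0. The summed level was higher in both stretches of the cluster, with 7.81 to 8.79 RPKM against 10.6 to 10.9 RPKM from Pcdhb1 to Pcdhb11, and 11.5 to 15.4 RPKM against 17.4 to 18.0 RPKM from Pcdhb12 to Pcdhb22.

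In the gamma cluster 0 rows passed the test, and the groups of all 22 rows overlapped. The summed level was 823, 858 and 687 RPKM in controls and 852, 786 and 757 RPKM with fibrinogen. Control replicate 3 was the lowest library and control replicate 2 the highest. The means were 789 RPKM ± 90.3 (SD, n = 3) and 798 RPKM ± 48.5 (SD, n = 3). The log2 change of the rows was -0.0012 to 0.11, with 0 called by limma, 0 at an unadjusted p under 0.05 and 0 called by limma-voom. It was above 0 in 21 of 22 rows with all libraries. Without control replicate 3 it was below 0 in 21 of 22 rows, and likewise without fibrinogen replicate 1.

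The gamma rows hold the A, B and C types of variable exon. Pcdhgc3, whose cytoplasmic part binds Axin1 of the Wnt pathway, was the highest row with 42.8, 45.0 and 37.1 RPKM in controls and 44.0, 41.4 and 40.1 RPKM with fibrinogen. Pcdhgb7 was 40.8, 42.6 and 34.4 RPKM against 42.7, 39.1 and 38.1 RPKM. Pcdhgb8 was 41.4, 43.1 and 34.1 RPKM against 42.4, 39.1 and 37.5 RPKM. These rows followed the order of the gamma sum, with control replicate 3 lowest, except that fibrinogen replicate 1 was highest in Pcdhgb7. Pcdhgc4, needed for the survival of mouse neurons, was 34.3, 35.6 and 28.5 RPKM against 35.2, 32.7 and 31.5 RPKM. Pcdhgc5, a partner of GABA-A receptors, was 29.2, 30.4 and 25.8 RPKM against 32.6, 30.4 and 29.4 RPKM. It had the largest gamma change and overlapped (log2 change 0.11, SE 0.086, limma adjusted p = 0.429).

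With the gamma constant exons counted once, they were 189, 196 and 156 RPM in controls and 195, 179 and 173 RPM with fibrinogen (log2 change 0.019, limma adjusted p = 0.923). These exons stood well above the alpha ones, at 180 RPM ± 21.5 (SD, n = 3) against 44.5 RPM ± 2.53 (SD, n = 3) in controls, over 2116 and 2860 bases. A gamma difference was not detectable over the spread of these libraries.

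**Figure D3:**
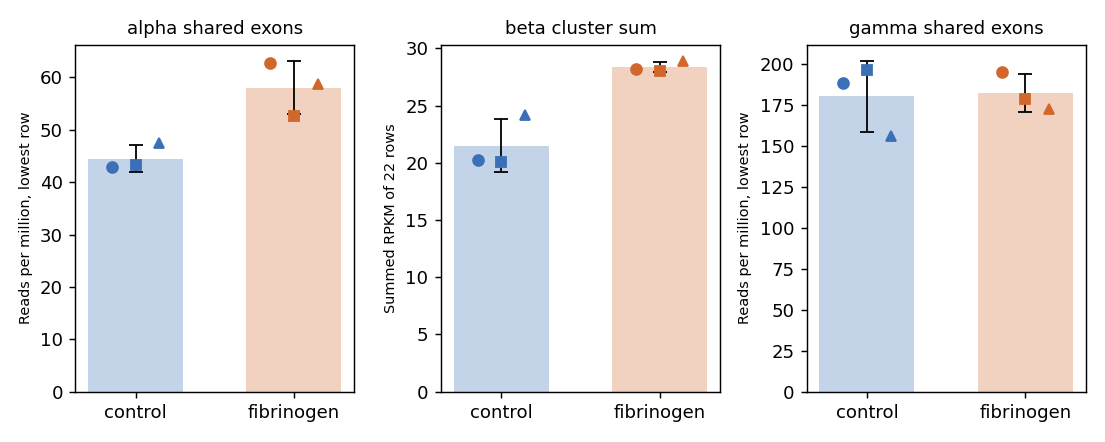
RPM (reads normalised to depth) of the lowest alpha row (left), summed RPKM of the 22 beta rows (middle) and RPM of the lowest gamma row (right), with bars for group means of 3 libraries, error bars for the SD, and 1 symbol per library. The alpha and beta symbols of the groups do not overlap, and the gamma symbols do.

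Among the own exons of the gamma rows, those of Pcdhgc5 rose. The level was 6.15, 6.46 and 7.42 RPKM in control replicates 1 to 3 and 9.68, 9.66 and 9.43 RPKM in fibrinogen replicates 1 to 3. All treated libraries lay above the controls and close to each other, and the ratio of the means was 1.44. The test gave 0.47 on the log2 scale (SE 0.083, limma adjusted p = 0.0181). By limma-voom the log2 change was 0.53 (adjusted p = 0.0106). The share of Pcdhgc5 among gamma own-exon reads was 24.0 to 26.5% in controls and 32.3 to 35.1% with fibrinogen. Its row in the table, mostly constant-exon reads, had the log2 change of 0.11 given above. In fits without 1 library, the log2 change was 0.42 to 0.54, and 1 of the 6 kept the call, the one without control replicate 3 (limma adjusted p = 0.0083 to 0.0762). Of the 5511 bases, 902 also belong to the predicted gene Gm38182, where reads of both cannot be told apart, and an exon entry of Pcdhgc5 runs on into the first constant exon.

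Pcdhgc3 held 29.6 to 34.5% of the gamma own-exon reads, the most in each control library and less than Pcdhgc5 in each fibrinogen library. These shares are not normalised to length, and Pcdhgc5 has the longest own exons of the gamma rows. Per kilobase, Pcdhgc3 lay above Pcdhgc5 in every library. The own-exon level of Pcdhgc3 was 13.8, 15.1 and 14.3 RPKM in controls and 13.8, 14.4 and 14.2 RPKM with fibrinogen. The groups overlapped (log2 change -0.024, SE 0.069, limma adjusted p = 0.852). The antisense gene BC037039 covers 1559 of its bases and held 1512 to 1943 reads a library, and reads of both cannot be told apart there if strand was not used. Pcdhgc4 was low at 0.872, 0.861 and 0.968 RPKM against 0.564, 1.20 and 1.07 RPKM. In the gamma cluster the C-type isoforms thus held 59.9 to 60.8% of own-exon reads in controls and 64.5 to 67.0% with fibrinogen, again not normalised to length. If strand was not used, the Pcdhgc3 part of these shares may include reads of BC037039.

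Pcdhga8, an A-type isoform, was the other gamma gene to change in its own exons. Its level was 1.70, 1.33 and 1.08 RPKM in controls and 0.313, 0.628 and 0.3901 RPKM with fibrinogen. These values stood for only 121 to 170 reads in controls and 30 to 73 reads with fibrinogen. The groups did not overlap. It passed the limma-voom filter of 10 reads in all 6 libraries, and by that test it fell (log2 change -1.62, SE 0.31, limma-voom adjusted p = 0.0134). It passed the filter of 1 RPKM only through the controls, so the main test on it (log2 change -0.71, limma adjusted p = 0.0243) is given as a value only. Leaving out a library kept that p under the threshold in 2 of 6 fits (0.0188 to 0.0864). Its exons overlap 416 bases of the opposite-strand Gm37165. With Pcdhgc5, limma-voom called 2 of 21 gamma own-exon features, beside 11.4% over all features in that fit, so this count does not stand above the background.

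**Figure D4:**
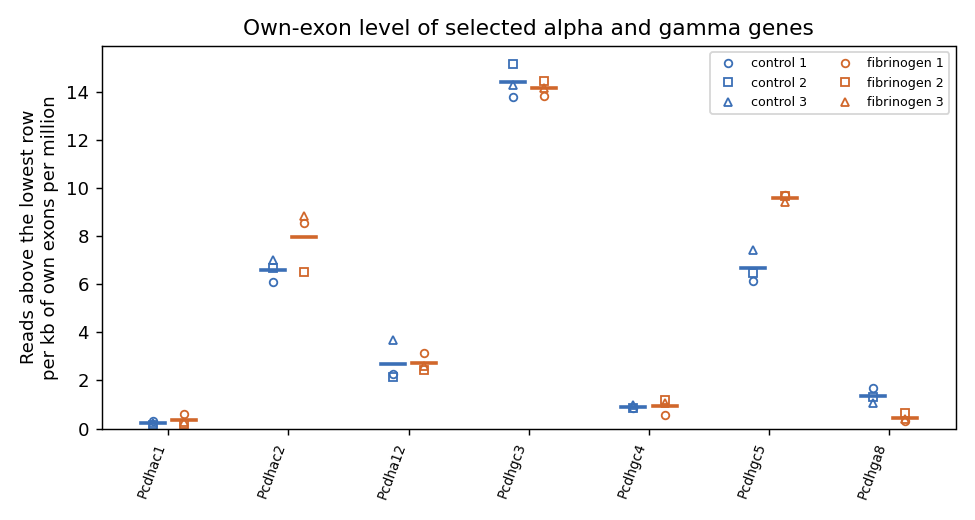
Reads above the lowest row of the cluster, normalised to depth and to kilobases of own exons (y axis, linear from 0), for the C-type alpha and gamma genes, Pcdha12 and Pcdhga8, with 1 symbol per library and a line at the mean of 3 libraries. Pcdhgc5 is higher and Pcdhga8 lower with fibrinogen without overlap, and Pcdhgc3 lies level.

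The other gamma isoforms were low in their own exons, with group means of 0.0265 to 2.36 RPKM. Without overlap Pcdhga5 lay above with fibrinogen, and Pcdhgb5 and Pcdhgb8 lay below. With Pcdhgc5 and Pcdhga8 this makes 2 of 22 above and 3 of 22 below, near the 11.2% and 12.3% over all features with a value. The lowest gamma row differed between libraries. Pcdhgb5 was itself that row in fibrinogen replicate 3, so the subtraction left it no own-exon reads there. Pcdhga5, Pcdhgb5 and Pcdhgb8 were not called. Pcdhga11 was 2.32, 1.91 and 0.558 RPKM in controls and 0.372, 0.835 and 0.405 RPKM with fibrinogen, and control replicate 3 lay among the treated libraries.

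**Figure D5:**
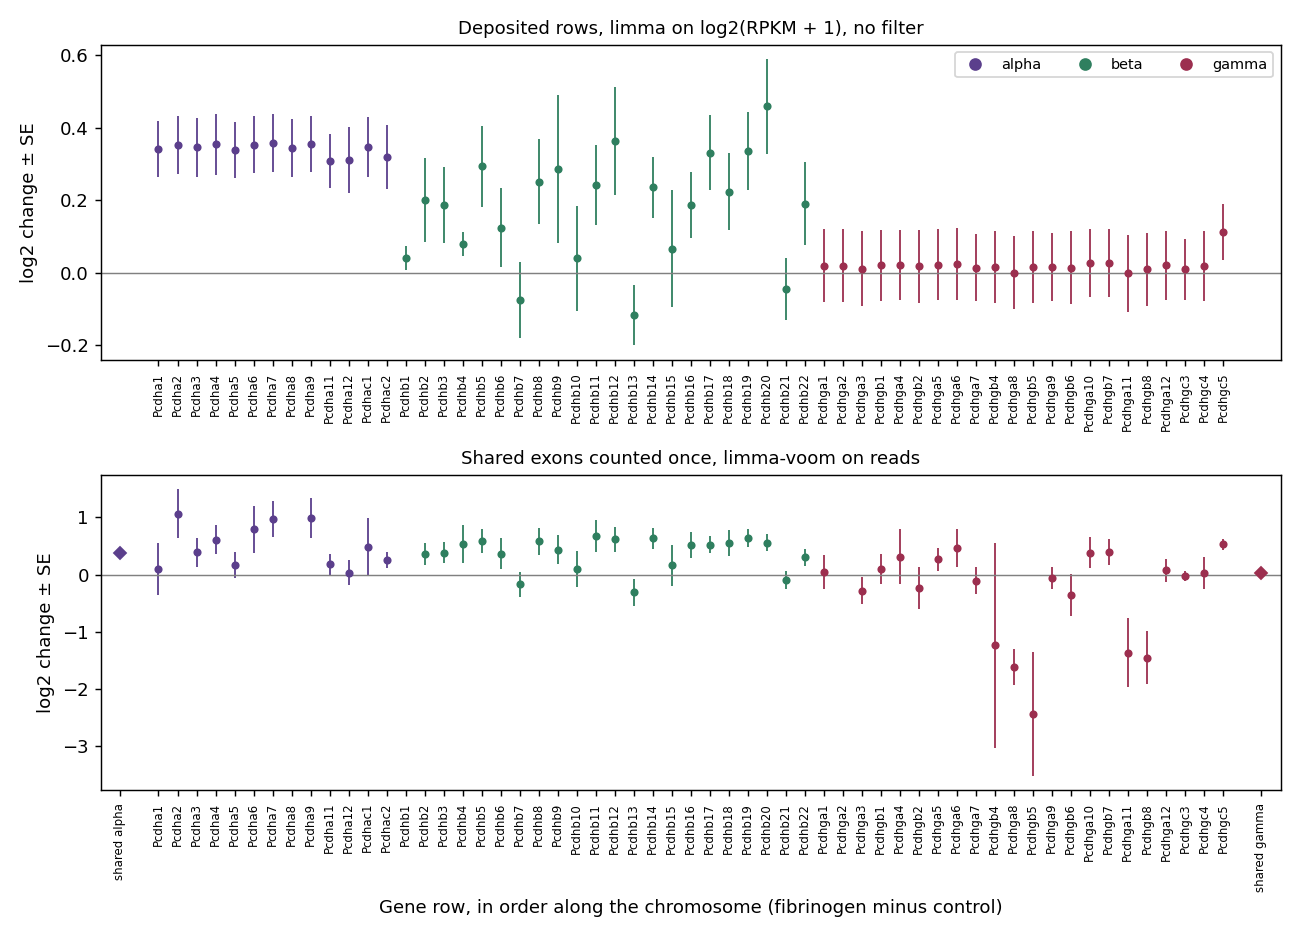
Log2 change, fibrinogen minus control, with its SE (y axis) for each gene in chromosome order, from limma on the deposited rows without a filter (upper panel) and from limma-voom with constant exons counted once (lower panel, diamonds for the constant exons). In the upper panel the alpha rows lie at one height near 0.35 and the gamma rows near 0, while in the lower panel the genes of both clusters spread.

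Genes outside the clusters were read in 5 lists, each count beside the 11.5% of all tested genes that were called. The non-clustered protocadherins, which lie outside the 3 clusters, had 2 of 9 tested genes higher and 0 lower, with a median log2 change of 0.25. Pcdh20 was 1.91, 1.52 and 1.86 RPKM in controls and 4.57, 4.24 and 3.86 RPKM with fibrinogen, and it rose (log2 change 0.92, SE 0.098, limma adjusted p = 0.0038). Pcdh9 was 15.8, 14.7 and 16.6 RPKM against 24.5, 20.2 and 27.3 RPKM and rose (log2 change 0.57, limma adjusted p = 0.026). The groups overlapped in neither gene.

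Of CTCF and cohesin genes, which fold the clusters so that a promoter meets its enhancer, 1 of 11 rose and 0 fell. It was Rad21, a cohesin subunit, at 72.0, 67.7 and 79.2 RPKM against 104, 97.9 and 107 RPKM (log2 change 0.49, limma adjusted p = 0.016). Ctcf itself had a log2 change of -0.22 (limma adjusted p = 0.14). Among genes of promoter silencing and DNA methylation 1 of 9 fell and 0 rose. This was Tet2, which oxidises methylated cytosine, at 6.48, 6.06 and 5.97 RPKM against 2.90, 4.203 and 3.26 RPKM (log2 change -0.70, limma adjusted p = 0.015).

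Among 16 signalling partners 1 rose and 2 fell. Ptk2b, the Pyk2 kinase that the cytoplasmic constant part binds and inhibits, was 56.3, 59.3 and 62.6 RPKM in controls and 38.7, 37.0 and 37.2 RPKM with fibrinogen. It fell by 0.64 on the log2 scale (limma adjusted p = 0.0044), and its relative Ptk2 had a log2 change of 0.015 (limma adjusted p = 0.92). Abi1, of the WAVE actin complex, was 18.9, 19.6 and 19.9 RPKM against 16.5, 15.0 and 16.0 RPKM and fell (limma adjusted p = 0.045). Marcks, an actin regulator that acts with gamma protocadherins in dendrites, was 17.1, 16.8 and 14.2 RPKM against 21.9, 21.2 and 27.5 RPKM and rose (limma adjusted p = 0.039). Of 12 tested cadherins and catenins 1 rose and 0 fell, the adhesion gene Cdh11, at 4.04, 4.42 and 3.58 RPKM against 5.71, 5.68 and 5.89 RPKM (log2 change 0.43, limma adjusted p = 0.025).

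Near the clusters, Diaph1, a formin that nucleates actin, has its nearest end 1.73 kb beyond the gamma cluster and was chosen after its values were seen. It fell from 21.6, 21.7 and 20.4 RPKM to 13.4, 13.9 and 15.2 RPKM (log2 change -0.55, SE 0.075, limma adjusted p = 0.0083). Taf7, between the beta and gamma clusters, was 6.06, 6.31 and 4.61 RPKM in controls and 6.42, 5.11 and 6.21 RPKM with fibrinogen, and it overlapped.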

How the data were processed

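RNA of 3 control and 3 fibrinogen libraries was measured. The authors deposited 1 table of RPKM with exon lists and lengths, made, per the labels, with STAR 2.7.6a after Trimmomatic 0.39, then featureCounts 1.5.1 and edgeR 3.12.1, on GRCm38; the study's methods name another STAR release and GRCm39. The study's methods name a stranded kit; whether counting used strand or allowed overlaps is not given in the sources used here. Exon ends of 47 of 57 members lay within 500 bases of RefSeq GRCm38.p6, against 0 for GENCODE vM39 on GRCm39. All values came out as whole reads within 0.001 reads.

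Because RPKM is not a count, limma 3.58.1 (R 4.3.3) was fitted to log2(RPKM + 1) of the 14710 genes that reached 1 RPKM in 3 or more libraries, with a trended prior and two-sided Benjamini-Hochberg adjusted p under 0.05. A log2 change understates that of low genes. Members named with values were those called, the 3 highest of each cluster and the C types. Members and lists were chosen with earlier results of these data known. Alternatives were other pseudocounts, filters, scalings, priors, weights, a replicate block, limma-voom on recovered reads and leaving out each library; counting constant exons once was added after seeing the data. On simulated reads limma recovered 6% of 1.3-fold, 42% of 1.5-fold and 94% of 2-fold changes over 14652 tested genes. No member sequence is printed.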

Additional observations from a re-analysis of the deposited data

How the results depend on the processing

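There were 1689 called genes over all genes tested, against 935 without a filter, 600 with the replicate block, 4041 with array weights, and 466 to 2300 when a library was left out. The 9 alpha calls became 0 without a filter, 5 with a mean of at least 0.5 RPKM, 0 with the replicate block and 1 without the trended prior. They were 13 with array weights, 11 with quantile normalization, 11 with limma-voom, and 0 to 12 without a library. With constant exons counted once, limma called 0 of 3 tested alpha own-exon features and limma-voom 0 of 12. The alpha constant exons themselves were called in that limma fit (limma adjusted p = 0.0424). The 0 beta calls became 1 with quantile normalization, 5 with array weights, 2 with limma-voom, 2 with limma-voom and constant exons counted once, and 0 to 3 without a library. The 0 gamma calls became 2 and 2 with constant exons counted once (limma and limma-voom). The limma count includes Pcdhga8, which passed the RPKM filter only through the controls and is given as a value only. The 8 calls in the companion lists became 4 without a filter, 5 with the block, 20 with array weights and 2 to 9 without a library. The beta median of 0.29 was 0.50 with a pseudocount of 0.1 RPKM, 0.20 without a filter, 0.21 with the mean filter, 0.51 with limma-voom and 0.26 to 0.34 without a library. The cause of these shifts was not tested.

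Signs turned in the gamma cluster. With array weights Pcdhgc3 was -0.033, Pcdhgb7 -0.024, Pcdhgb8 -0.054 and Pcdhgc4 -0.041, and with quantile normalization Pcdhgc3 was -0.0032. Without control replicate 3 and without fibrinogen replicate 1, Pcdhgc3 was -0.069 and -0.026, Pcdhgb7 -0.061 and -0.019, Pcdhgb8 -0.090 and -0.039, Pcdhgc4 -0.076 and -0.023, and the gamma constant exons -0.081 and -0.030. The highest values, without control replicate 2, were 0.067 for Pcdhgc3, 0.089 for Pcdhgb7, 0.073 for Pcdhgb8, 0.081 for Pcdhgc4 and 0.084 for the gamma constant exons. Pcdhgc3 own exons were -0.053 to 0.011 without a library, turning without control replicate 2. No sign turned among the alpha rows.

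Replicate numbers did not pair the libraries: deviations of same-numbered libraries correlated at 0.058, -0.24 and -0.075, and 0 of 6 libraries correlated best with their own number. Depth limits the beta and own-exon values, which rest on few reads.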
